A study of Homo sapiens with 12 samples.

Results

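The 10 genes followed here are widely used as readouts of the co-activator YAP and its DNA-binding TEAD partners, and were measured in 3 kinds of breast epithelial culture. The members are CCN1, CCN2, ANKRD1, AMOTL2, AJUBA, LATS2, AXL, F3, NUAK2 and TEAD1, and their probe sets were found by symbol in the annotation of the array. The 10 were chosen as known targets, with earlier results of these data in view. Of these 10 genes, 9 had a probe set named for them, each a single one, among 17687 named genes. AMOTL2 expression was not analysed here. Of the 9, 8 were bright enough to be tested among 12758 genes, and ANKRD1 was not.

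All cultures derived from the MCF-10A cell line, human mammary epithelium that is immortal but forms no tumours. The first group, 4 arrays, carried HER2 L755S, which alters the tyrosine kinase part of this growth factor receptor, and was grown alone. The second, 4 arrays, carried PIK3CA E545K, which alters p110-alpha, the catalytic PI3K protein, and was also grown alone. The third, 4 arrays, held both lines together and was taken when droplet digital PCR put the HER2-mutant cells at about 75%, per the labels. All 3 groups grew in physiologic EGF without further treatment and were harvested after 7 to 14 days. Each mutation is represented by 1 isogenic line as far as the labels say, no line without either mutation was analysed here, and the labels give no confluence or harvest day for a culture. A difference between the lines thus cannot be assigned to the mutation. The labels say only that RNA was extracted in quadruplicate, so p-values measure the spread between these arrays.

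Values are log2 probe-set signals as deposited, so a difference of 1 is a doubling. The array medians were 6.41 to 6.49. The 95th percentile of 612 negative control probe sets, used here as the level below which a signal is hard to tell from background, was 6.32 to 7.12. KRT5, a keratin of basal epithelium, had group means of 17.33, 17.44 and 17.13. CDH1, the epithelial cadherin, had means of 13.53, 12.81 and 12.82, always in the order HER2-mutant line, PIK3CA-mutant line and co-culture. Of 10 basal markers 5 had a probe set in use, as did all 6 general epithelial markers, and all of these passed the filter on low signal. Between the lines, limma called 2 basal markers higher in the HER2-mutant line and 2 lower. It called 3 epithelial markers higher and 3 lower, where 59.5% of all genes were called. Means were 12.31, 14.66 and 13.95 for ITGA6, 12.87, 10.55 and 12.21 for KRT8 and 10.86, 13.18 and 12.88 for KRT18. CLDN4 (5.31, 9.62 and 8.27) was above the negative control level on 8 of 12 arrays. Of 8 fibroblast markers 7 had a probe set. LUM, PDGFRA and PDGFRB did not pass the filter, COL1A1 and COL1A2 were not called in any comparison of groups, and DCN (10.70, 7.07 and 8.03) and FAP (5.22, 11.17 and 11.19) were well above background in at least 1 group and differed between the lines. The summed linear signal of the 7, on the log2 scale, was 10.96 to 11.33 in the HER2-mutant line, 11.39 to 11.66 in the PIK3CA-mutant line and 11.35 to 11.84 in the co-culture. Their part in the results on YAP targets was not tested. Of the 7 blood and endothelial markers with a probe set, CD14 was above the negative control level on 8 of 12 arrays, and PTPRC, PECAM1, CDH5, HBB, CD3E and VWF did so on 0 arrays. The summed level of these 7 was 7.46 to 7.81, 8.15 to 8.55 and 8.30 to 8.66 in the same order.

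YAP and its relative TAZ are co-activators that shuttle between the cytoplasm and the nucleus. In the Hippo pathway the MST kinases act through the LATS kinases, which phosphorylate YAP and TAZ. This holds them in the cytoplasm, for example in dense or soft surroundings, while spread cells under tension let them enter the nucleus. There they bind TEAD factors, which recognise the sequence GGAATG, often next to sites for AP-1. Targets include secreted matrix-associated proteins, surface receptors and inhibitors that feed back on the pathway, and in breast epithelial cells YAP activity is a known driver of growth and migration.

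The 10 genes did not move as a block. CCN2 and NUAK2 overlapped between the lines, and the co-culture was above both. CCN1 was slightly lower in the PIK3CA-mutant line than in the other two groups. AJUBA was highest in the HER2-mutant line and F3 in the PIK3CA-mutant line, with the co-culture between them. AXL and TEAD1 did not pass the threshold in any comparison, and ANKRD1 was at background throughout. In limma, with p-values adjusted over all genes, 3 of the 8 tested members were higher and 1 was lower in the HER2-mutant than in the PIK3CA-mutant line, where 59.5% of all genes were called (30% higher, 29.5% lower). The co-culture had 3 higher and 1 lower against the HER2-mutant line (51.0% of all genes called, 24.9% higher and 26.0% lower). Against the PIK3CA-mutant line it had 4 higher and 1 lower (25.7% of all genes called, 11.1% higher and 14.6% lower). The median difference of the 8 members was 0.12, 0.13 and 0.35 in these comparisons, beside 0.05, -0.05 and -0.02 over all genes tested. Arrays did not overlap for 5 of the 8 members between the lines, beside 53.0% of all genes tested. That was so for 4 of 8 in the co-culture against the HER2-mutant line, beside 44.4%, and for 5 of 8 against the PIK3CA-mutant line, beside 28.3%. The 3 comparisons share their arrays pairwise and are given side by side for that reason.

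**Figure D1:**
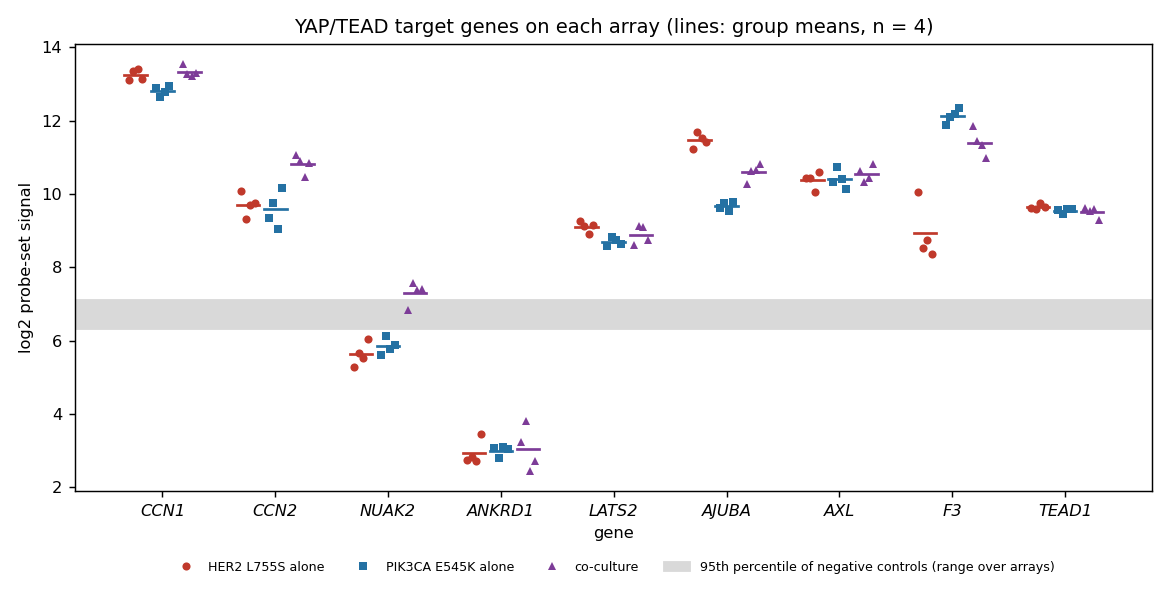
Log2 probe-set signal (vertical axis) of the 9 measured genes on each array, with 4 arrays per group and a short line at each group mean. CCN2 and NUAK2 sit higher on the 4 co-culture arrays than on all 8 single-culture arrays, and the grey band marks the negative control level (95th percentile, 6.32 to 7.12 over arrays), with all ANKRD1 points below it.

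CCN2 encodes CTGF, a secreted matricellular protein that binds integrins and growth factors, and is the most used YAP target. Its RefSeq promoter holds 3 copies of the TEAD motif, the most among the 8 members with a promoter window, and is shown for that reason. The stretch is the 250 bases before the start, chr6:131951373-131951622 of GRCh38.p14, minus strand, read 5′ to 3′ along the gene, with TEAD motifs in capitals.
CCN2: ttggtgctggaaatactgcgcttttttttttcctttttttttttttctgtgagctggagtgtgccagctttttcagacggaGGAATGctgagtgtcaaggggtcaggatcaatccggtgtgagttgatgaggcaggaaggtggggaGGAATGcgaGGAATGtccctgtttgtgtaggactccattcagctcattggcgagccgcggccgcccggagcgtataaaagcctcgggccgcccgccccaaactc

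The CCN2 signal was 10.09, 9.31, 9.71 and 9.75 in the HER2-mutant line. It was 9.35, 9.76, 9.05 and 10.17 in the PIK3CA-mutant line and 11.07, 10.89, 10.46 and 10.85 in the co-culture. The single cultures overlapped each other, and every co-culture array was above all 8 of them. The co-culture mean of 10.82 ± 0.26 (SD, n = 4) was 2.15-fold above the HER2-mutant line (9.71 ± 0.32), a log2 difference of 1.10 ± 0.19 (SE, limma adjusted p 3.97e-05). It was 2.36-fold above the PIK3CA-mutant line (9.58 ± 0.49), by 1.24 ± 0.19 (limma adjusted p 3.58e-05). Between the lines CCN2 differed by 0.13, with a 95% confidence interval from -0.26 to 0.53 (limma adjusted p 0.571). As the co-culture is a mixture in a bulk sample, a change in the number of cells that express a gene and a change in RNA per cell cannot be told apart.

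CCN1, which encodes CYR61, is the closest relative of CCN2 in this list and a secreted integrin ligand. Its signal was 13.10, 13.36, 13.41 and 13.15 in the HER2-mutant line, 12.89, 12.65, 12.79 and 12.95 in the PIK3CA-mutant line and 13.54, 13.27, 13.23 and 13.31 in the co-culture. The PIK3CA-mutant arrays were the 4 lowest of the 12, and the other two groups overlapped. In limma, the HER2-mutant line exceeded the PIK3CA-mutant line 1.35-fold in CCN1, a log2 difference of 0.44 ± 0.09 (SE, adjusted p 0.000288). The co-culture exceeded it 1.43-fold, by 0.52 ± 0.09 (limma adjusted p 0.000188). Against the HER2-mutant line it differed by 0.08 (interval -0.11 to 0.27, limma adjusted p 0.492). Both CCN1 calls were lost when the difference had to exceed a margin of 0.5 (treat adjusted p 1 in each), whereas the CCN2 calls in the co-culture held (0.0149 and 0.0158).

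NUAK2 is an AMPK-related kinase that acts on actomyosin contractility and is itself induced by YAP. It is the second member whose promoter is shown, since its co-culture level too was above both lines. The 250 bases are chr1:205321746-205321995 of GRCh38.p14, minus strand, with the TEAD motif in capitals, once on each strand.
NUAK2: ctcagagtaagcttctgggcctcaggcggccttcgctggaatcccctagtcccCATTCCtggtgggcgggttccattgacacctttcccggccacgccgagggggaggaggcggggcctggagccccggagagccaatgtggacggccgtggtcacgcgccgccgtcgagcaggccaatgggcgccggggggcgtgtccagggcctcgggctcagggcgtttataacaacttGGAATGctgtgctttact

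The NUAK2 signal was 5.29, 5.66, 5.52 and 6.06 in the HER2-mutant line, 5.62, 6.14, 5.76 and 5.87 in the PIK3CA-mutant line and 6.84, 7.57, 7.39 and 7.40 in the co-culture. All 4 co-culture arrays were above their own negative control level and above all 8 single-culture arrays, which were all below theirs. Because the single cultures were within the background range, the folds below may understate the change. In limma the co-culture was 3.18-fold above the HER2-mutant line, by 1.67 ± 0.19 (SE, adjusted p 9.53e-08), and 2.74-fold above the PIK3CA-mutant line, by 1.45 ± 0.19 (adjusted p 4e-06). Between the lines the difference was -0.22 (interval -0.61 to 0.17, limma adjusted p 0.334).

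A call of a level outside both lines was uncommon over the genome. With the larger p of the 2 contrasts taken for each gene and adjusted in limma over all genes, 1.85% of the genes tested were called outside both lines. Of the genes tested, 1.00% were called above both and 0.847% below both. CCN2 (adjusted p 0.00148) and NUAK2 (4.58e-05) were 2 of those 128 genes called above both. The other 6 tested members were not called, although the co-culture means of CCN1, AXL and TEAD1 also lay outside both.

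ANKRD1, a muscle-type ankyrin repeat protein of the nucleus, is a strongly YAP-induced gene in many cultured cells. It is shown here since its promoter holds the TEAD motif at 2 places while its probe set gave no signal above background. The 250 bases are chr10:90921088-90921337 of GRCh38.p14, minus strand, with TEAD motifs in capitals.
ANKRD1: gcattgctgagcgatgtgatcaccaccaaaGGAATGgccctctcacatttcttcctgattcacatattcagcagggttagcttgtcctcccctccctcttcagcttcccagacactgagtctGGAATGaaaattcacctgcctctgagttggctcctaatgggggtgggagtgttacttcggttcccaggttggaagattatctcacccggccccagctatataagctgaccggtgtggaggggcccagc

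ANKRD1 read 2.75, 2.82, 2.71 and 3.45 in the HER2-mutant line, 3.06, 2.81, 3.09 and 3.05 in the PIK3CA-mutant line and 3.23, 3.81, 2.45 and 2.73 in the co-culture. All 12 values were below the negative control level of their array and below the filter, and the groups overlapped. Tested without the filter, its differences were -0.07, 0.12 and 0.05 (limma adjusted p 0.83, 0.714 and 0.929), which at this level says nothing about the transcript.

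LATS2 is a Hippo kinase that phosphorylates YAP and, being a YAP target, feeds back on it. Its single TEAD motif lies 10 to 15 bases after the start, inside this short stretch of the minus strand, chr13:21061564-21061585 of GRCh38.p14, with the motif in capitals.
LATS2: acgcccgtGGAATGccaacaat

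LATS2 had signals of 9.26, 9.13, 8.90 and 9.15 in the HER2-mutant line, 8.58, 8.83, 8.75 and 8.65 in the PIK3CA-mutant line and 8.60, 9.13, 9.09 and 8.76 in the co-culture. The lines did not overlap, and the co-culture spread over both. In limma the HER2-mutant line was 1.33-fold higher, with a log2 difference of 0.41 ± 0.14 (SE, adjusted p 0.0134). That call was lost against the margin of 0.5 (treat adjusted p 1). The co-culture differed by -0.22 from the HER2-mutant line (interval -0.50 to 0.07) and by 0.19 from the PIK3CA-mutant line (interval -0.09 to 0.47), neither of which limma called (adjusted p 0.197 and 0.352).

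AJUBA is a LIM-domain adaptor of cell junctions that binds LATS kinases and restrains them under tension. Its signal was 11.22, 11.69, 11.53 and 11.41 in the HER2-mutant line, 9.63, 9.76, 9.54 and 9.78 in the PIK3CA-mutant line and 10.28, 10.64, 10.66 and 10.81 in the co-culture. The 3 groups did not overlap at all. In limma, AJUBA was 3.45-fold higher in the HER2-mutant than in the PIK3CA-mutant line, by 1.79 ± 0.12 (SE, adjusted p 1.22e-11). The co-culture was 1.82-fold below the HER2-mutant line, by -0.86 ± 0.12 (adjusted p 2.73e-06), and 1.90-fold above the PIK3CA-mutant line, by 0.92 ± 0.12 (adjusted p 5.28e-06).

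F3 encodes tissue factor, the membrane receptor that starts blood clotting, and was highest in the other line. Its promoter is the one of a measured and tested member that holds the AP-1 motif TGANTCA, where N is any base, and it holds no TEAD motif. The 250 bases are chr1:94541760-94542009 of GRCh38.p14, minus strand, with the AP-1 motifs in capitals.
F3: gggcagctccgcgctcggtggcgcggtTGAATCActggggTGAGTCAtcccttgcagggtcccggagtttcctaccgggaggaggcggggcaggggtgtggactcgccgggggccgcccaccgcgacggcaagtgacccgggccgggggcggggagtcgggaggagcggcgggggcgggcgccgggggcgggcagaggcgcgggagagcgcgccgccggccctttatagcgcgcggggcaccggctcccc

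F3 read 10.05, 8.52, 8.76 and 8.37 in the HER2-mutant line, 11.88, 12.10, 12.18 and 12.36 in the PIK3CA-mutant line and 11.85, 11.45, 11.33 and 10.98 in the co-culture. Replicate 1 of the HER2-mutant line was more than 1 above its group's other arrays, yet still below every array of the other groups. In limma, F3 was 9.22-fold lower in the HER2-mutant than in the PIK3CA-mutant line, a log2 difference of -3.20 ± 0.24 (SE, adjusted p 7.74e-11). The co-culture was 5.57-fold above the HER2-mutant line, by 2.48 ± 0.24 (adjusted p 1.05e-08). It was 1.66-fold below the PIK3CA-mutant line, by -0.73 ± 0.24 (limma adjusted p 0.0297), although co-culture replicate 1 (11.85) came close to the lowest PIK3CA-mutant array (11.88). This last call did not hold without PIK3CA-mutant replicate 2, 3 or 4 (limma adjusted p 0.0552, 0.0635 and 0.0898) or without co-culture replicate 2, 3 or 4 (0.054, 0.0684 and 0.114).

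AXL is a receptor tyrosine kinase that binds GAS6. Its signal was 10.45, 10.43, 10.07 and 10.60 in the HER2-mutant line, 10.32, 10.75, 10.42 and 10.14 in the PIK3CA-mutant line and 10.62, 10.34, 10.45 and 10.83 in the co-culture. All 3 groups overlapped. The interval of the difference was -0.30 to 0.27 between the lines, -0.11 to 0.46 for the co-culture against the HER2-mutant line and -0.13 to 0.44 against the PIK3CA-mutant line. In limma the adjusted p was 0.914, 0.317 and 0.482.

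TEAD1 is itself one of the TEAD factors that carry YAP to DNA. It read 9.62, 9.60, 9.76 and 9.66 in the HER2-mutant line, 9.57, 9.45, 9.59 and 9.58 in the PIK3CA-mutant line and 9.61, 9.54, 9.58 and 9.29 in the co-culture. The lines did not overlap, yet their difference of 0.11 was not called (interval -0.11 to 0.34, limma adjusted p 0.394). The co-culture differed from the HER2-mutant line by -0.16 (interval -0.39 to 0.07, adjusted p 0.237) and from the PIK3CA-mutant line by -0.05 (interval -0.27 to 0.18, adjusted p 0.816), both in limma.

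**Figure D2:**
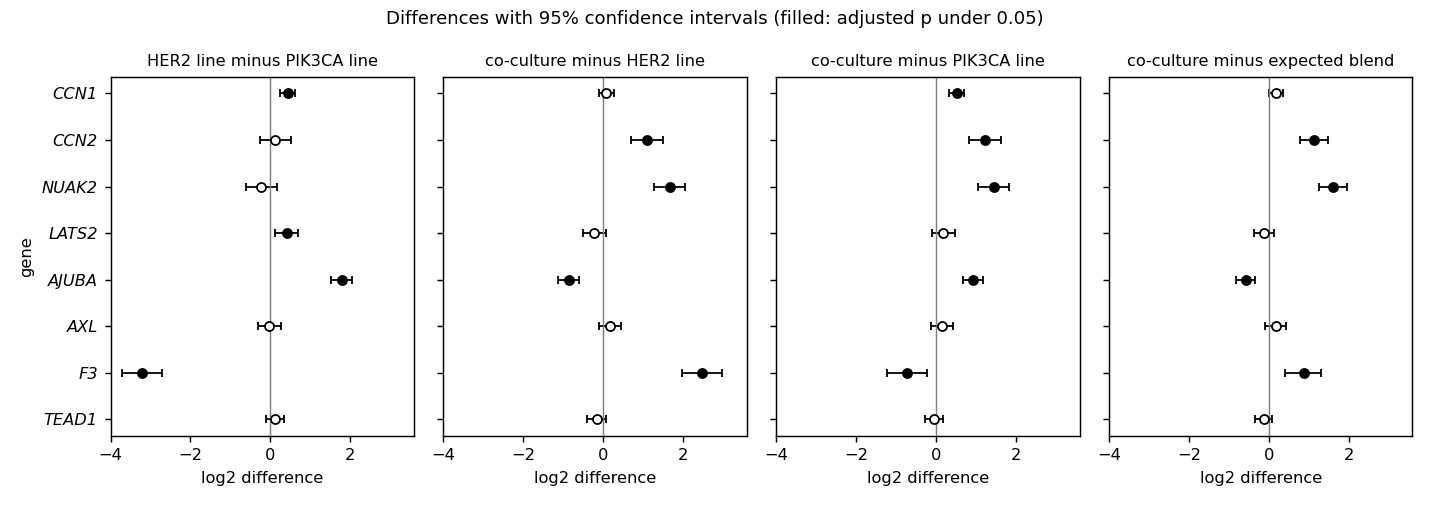
Log2 differences (horizontal axis) of the 8 tested genes in 4 comparisons, with 95% confidence intervals from the limma fit; filled points have an adjusted p under 0.05 over all genes. CCN2 and NUAK2 are near 0 between the lines and well above 0 in the 3 panels of the co-culture, while AJUBA and F3 have opposite signs in every panel.

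The labelled proportion of cells gives a level to expect in the co-culture if each line kept its own level and all cells gave equal RNA. For this blend the linear group means were weighted 75% HER2-mutant to 25% PIK3CA-mutant. CCN2 would then be at 9.68 and was at 10.82, 2.20-fold higher (1.14 ± 0.17, SE, limma adjusted p 1.37e-05). NUAK2 would be at 5.69 and was at 7.30, 3.06-fold higher (1.61 ± 0.17, adjusted p 7.22e-08 in limma). That blend level rests on signals below the negative control level, so this fold too may be understated. F3 was above its blend by 0.87 ± 0.22 (limma adjusted p 0.00282) and AJUBA differed from its blend by -0.58 ± 0.12 (limma adjusted p 0.000341). For both, this places the co-culture nearer to the PIK3CA-mutant line than the cell count would. CCN1 (0.18), LATS2 (-0.13), AXL (0.17) and TEAD1 (-0.13) were not called (limma adjusted p 0.1, 0.462, 0.309 and 0.313). In all, 3 of 8 members were above the blend and 1 below, where 40.8% of all genes tested departed from it (18.5% above, 22.3% below).

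The distance travelled between the lines puts the AJUBA and F3 result in other units. It uses the same group means and is not separate support. On the linear scale the co-culture stood 36.6% of the way from the PIK3CA-mutant to the HER2-mutant level for AJUBA and 44.4% for F3. The median over the 2713 genes that differed between the lines by at least 1 on the log2 scale was 30.2%, a description of genes chosen on these same arrays. Both members thus stood nearer to the PIK3CA-mutant end, as the typical gene did, whereas the labels put the HER2-mutant share of cells at 75%. If the blend is formed with 65% and 35%, the F3 call is lost (0.52, limma adjusted p 0.0776) and CCN1 passes (0.22, 0.0432). Shares below 65%, nearer to that median of 30.2%, were not tried. The AJUBA and F3 departures thus hold only for the shares used.

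The promoters of the members were compared by their motifs. RefSeq windows of 250 bases before to 50 after a start were at hand for 8 members in 11 windows, counting 2 starts each for AJUBA, AXL and AMOTL2. The members without a window were CCN1 and TEAD1. The TEAD motif GGAATG, searched on both strands, was in 7 of the 11 windows, beside 14.0% of the 35116 windows of all genes. Counted by gene instead, it was at 7 of the 8 members, with either start sufficing where there were 2. As the members were chosen as known YAP and TEAD targets, a high share can follow from that choice. The AP-1 motif TGANTCA was in 2 of the 11, those of F3 and ANKRD1, beside 7.71% of all windows. No match of 1 motif overlapped one of the other. In CCN2 the TEAD matches begin 169, 104 and 95 bases before the start, in NUAK2 197 and 18, in ANKRD1 220 and 128. AJUBA, AXL and AMOTL2 hold 1 match each, at 1 of their 2 starts. A match is a description of these letters and does not show a bound site. Members with a TEAD match included CCN2 and NUAK2, higher in the co-culture, but also AXL, which was not called, and ANKRD1, which was at background.

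**Figure D3:**
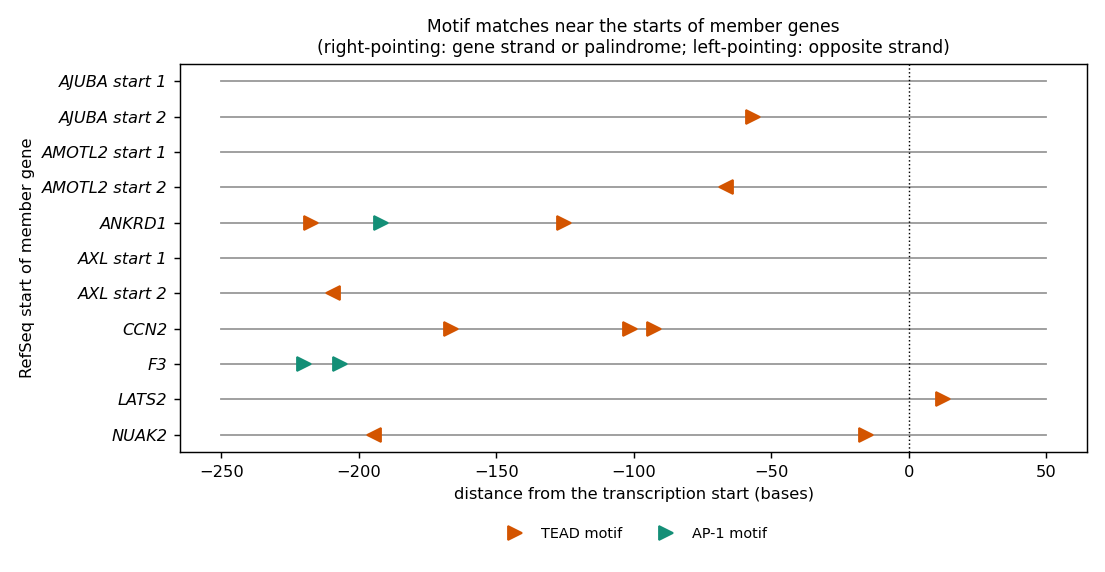
Positions of TEAD (GGAATG) and AP-1 (TGANTCA) motif matches relative to the transcription start (horizontal axis, bases) in the 11 RefSeq windows of member genes, where right-pointing marks lie on the gene strand or are palindromic and left-pointing ones on the other strand. CCN2 has 3 TEAD matches, NUAK2 and ANKRD1 have 2 each, and F3 has AP-1 matches in their place.

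Some genes of YAP, TAZ and their partners on DNA differed between the cultures. YAP1 read 11.38, 11.17, 11.41 and 11.60 in the HER2-mutant line, 12.58, 12.49, 12.39 and 12.34 in the PIK3CA-mutant line and 12.22, 12.19, 12 and 12.45 in the co-culture. The HER2-mutant arrays were all lower than the rest. In limma the line differed from the PIK3CA-mutant line by -1.06 ± 0.10 (SE, adjusted p 6.71e-09), and the co-culture was above it by 0.83 ± 0.10 (adjusted p 5.31e-07). Against the PIK3CA-mutant line the co-culture differed in YAP1 by -0.23 (limma adjusted p 0.109), which was called without co-culture replicate 4 (0.0382). Limma called 0 of the 7 tested genes of this list outside both lines.

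WWTR1, the gene of TAZ, was lowest in the co-culture. It read 7.50, 7.44, 8.04 and 7.21 in the HER2-mutant line, 7.95, 8.36, 8.06 and 7.92 in the PIK3CA-mutant line and 7.45, 7.13, 7.23 and 7.06 in the co-culture. In limma the co-culture differed from the PIK3CA-mutant line by -0.85 ± 0.17 (SE, adjusted p 0.000545) and from the HER2-mutant line by -0.33 ± 0.17 (adjusted p 0.111). The latter passed with median centring (adjusted p 0.0432) and without HER2-mutant replicate 4 (0.0353).

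Among the other TEAD genes, TEAD2 was higher in the HER2-mutant than in the PIK3CA-mutant line, by 0.70 ± 0.14 (SE, limma adjusted p 0.000177), and TEAD4 differed by -0.91 ± 0.18 (limma adjusted p 0.000133). TEAD4 was above the negative control level on 2 of 12 arrays only. TEAD3 had means of 8.43, 8.39 and 8.38 and was not called in any comparison. VGLL3 and VGLL4, vestigial-like cofactors of TEAD of which VGLL4 is a known competitor of YAP, were higher in the HER2-mutant than in the PIK3CA-mutant line by 3.34 and 1.72, and the co-culture was below the HER2-mutant line by -3.08 and -1.31 (limma adjusted p 4.18e-17, 1.1e-10, 3.43e-16 and 1.88e-08, in that order). Of the 9 genes of this list 7 were tested, with 3 higher in the HER2-mutant line and 3 higher in the PIK3CA-mutant line, beside 30% and 29.5% of all genes. Against the HER2-mutant line the co-culture had 2 higher and 3 lower, beside 24.9% and 26.0% of all genes. Against the PIK3CA-mutant line the co-culture had 1 higher, VGLL4 by 0.41 (limma adjusted p 0.0249), and 1 lower, WWTR1, beside 11.1% and 14.6% of all genes. VGLL4 was not called there without PIK3CA-mutant replicate 1 (0.0729) or 4 (0.0645) or co-culture replicate 3 (0.0799) or 4 (0.0956, limma adjusted p). Against the blend 1 was higher and 3 were lower, beside 18.5% and 22.3% of all genes. YAP1 was above it by 0.48 (limma adjusted p 0.000175). VGLL3 (-2.71), VGLL4 (-1.03) and WWTR1 (-0.48) were below it (limma adjusted p 1.86e-14, 8.34e-07 and 0.0129).

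**Figure D4:**
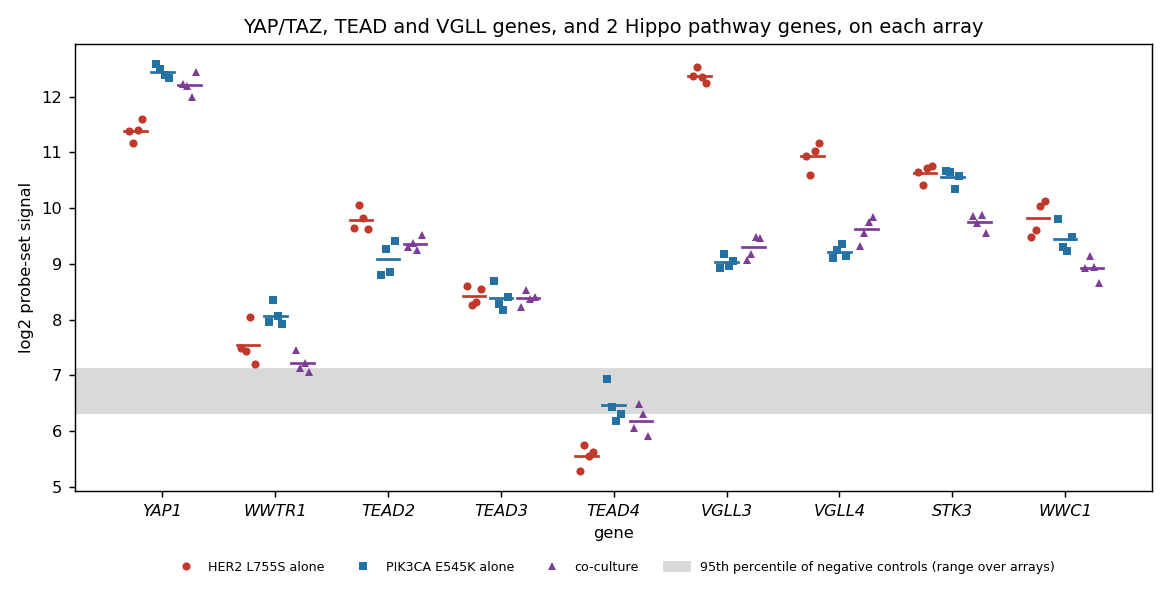
Log2 probe-set signal (vertical axis) on each array of YAP1, WWTR1 (TAZ), TEAD2 to TEAD4, VGLL3, VGLL4 and the Hippo pathway genes STK3 and WWC1, with 4 arrays per group and lines at the means. YAP1 is lowest and VGLL3 and VGLL4 are highest in the HER2-mutant line, and STK3 is lowest on the 4 co-culture arrays.

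The Hippo kinases and adaptors mostly restrain YAP, apart from LIMD1 and WTIP, relatives of AJUBA that inhibit LATS. Of 25 listed genes, 20 were tested, and each differed by less than a doubling in each comparison of groups. In the HER2-mutant against the PIK3CA-mutant line 7 were higher and 6 lower, from -0.99 (FRMD6) to 0.87 (TAOK2), with a median of 0.08; 59.5% of all genes were called there. Against the HER2-mutant line the co-culture had 2 higher and 7 lower, where 51.0% of all genes were called (24.9% higher, 26.0% lower). Against the PIK3CA-mutant line it had 0 higher and 6 lower, where 25.7% were called (11.1% higher, 14.6% lower). When that difference had to exceed a margin of 0.5, 0 genes of the list were called (STK3 treat adjusted p 0.154). In that last comparison the medians were -0.21 for the list and -0.02 for all genes. STK4, 1 of the 6 lower there (-0.56, limma adjusted p 0.0466), was not called without the filter (0.0609) or without a trend of the spread (0.083). Leaving out any co-culture array (0.0596 to 0.113) or PIK3CA-mutant replicate 1, 3 or 4 (0.059, 0.175 and 0.105) also ended the STK4 call. STK3, which encodes the core kinase MST2, was below both lines. Its signal was 10.65, 10.42, 10.72 and 10.76 in the HER2-mutant line, 10.66, 10.65, 10.35 and 10.57 in the PIK3CA-mutant line and 9.86, 9.74, 9.87 and 9.56 in the co-culture. In limma the differences were -0.88 ± 0.11 and -0.80 ± 0.11 (SE, adjusted p 6.83e-07 and 1.16e-05), and the adjusted p for a level outside both was 0.000141. AMOTL1, an angiomotin relative that binds YAP, was the other gene of the list called below both (-0.42, limma adjusted p 0.0145). WWC1, the scaffold KIBRA and itself a known YAP target, was below the HER2-mutant line by -0.90 (limma adjusted p 4.11e-05). Its difference from the PIK3CA-mutant line was -0.53 (limma adjusted p 0.0134). Leaving out PIK3CA-mutant replicate 1 (0.0684) or co-culture replicate 4 (0.0567) ended that call. Between the lines, the calls of WWC1 (limma adjusted p 0.0485) and STK4 (0.026) were also lost under several alternatives. Examples are WWC1 without HER2-mutant replicate 3 (0.147) and STK4 without HER2-mutant replicate 1 (0.141).

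A further list of 14 genes from a published pan-cancer set of YAP targets was taken for comparison, without the genes already named. It had 12 tested genes. In the HER2-mutant against the PIK3CA-mutant line, 6 were higher and 4 lower, where 59.5% of all genes were called (30% higher, 29.5% lower). The median was 0.40, beside 0.05 over all genes. CCDC80, a matrix protein, was higher by 2.04, PTPN14, a phosphatase that restrains YAP, by 1.71 and IGFBP3, a binding protein of insulin-like growth factors, by 1.24 (limma adjusted p 2.43e-10, 6.27e-14 and 4.92e-07). IGFBP3 was not above the negative control level on any array. On the other side, NT5E, the ecto-enzyme CD73, differed by -9.34 and DOCK5, an activator of the small GTPase Rac, by -1.80 (limma adjusted p 1.84e-18 and 1.88e-13). All 4 HER2-mutant NT5E values, 5.71, 6.68, 5.23 and 5.22, were below the negative control level of their arrays, so that difference may be understated.

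Limma called 0 of these 12 genes above or below both lines. Against the HER2-mutant line the co-culture had 2 higher and 5 lower, beside 24.9% and 26.0% of all genes. The largest were NT5E (6.88, from the same low HER2-mutant signals) and CCDC80 (-2.28). Against the PIK3CA-mutant line it had 2 higher and 3 lower, beside 11.1% and 14.6%. The lower were NT5E (-2.46), DOCK5 (-1.07) and MYOF (-0.53, limma adjusted p 4.07e-07, 2.84e-08 and 3.58e-05). The higher were RBMS3, an RNA-binding protein, and GADD45A, a stress-induced growth regulator, by 1.07 and 0.82 (limma adjusted p 2.51e-07 and 9.07e-05). Both were near their HER2-mutant level, with differences of -0.04 and -0.08 from it (limma adjusted p 0.797 and 0.679). Against the blend, limma called none of the 12 higher and 6 lower, beside 18.5% and 22.3% of all genes. The largest departures were CCDC80 (-1.97), PTPN14 (-1.46) and IGFBP3 (-1.06). Their co-culture means (8.80, 11.96 and 4.63) were near the PIK3CA-mutant means (9.03, 11.98 and 4.68). The median over the 2713 genes apart between the lines likewise stood only 30.2% of the way to the HER2-mutant level. Whether the count is particular to these 12 genes was not tested. With a blend of 85% and 15%, DOCK5 was called above it (0.27, limma adjusted p 0.0117), and with 65% and 35% NT5E was called below it (-0.95, limma adjusted p 0.00802).

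**Figure D5:**
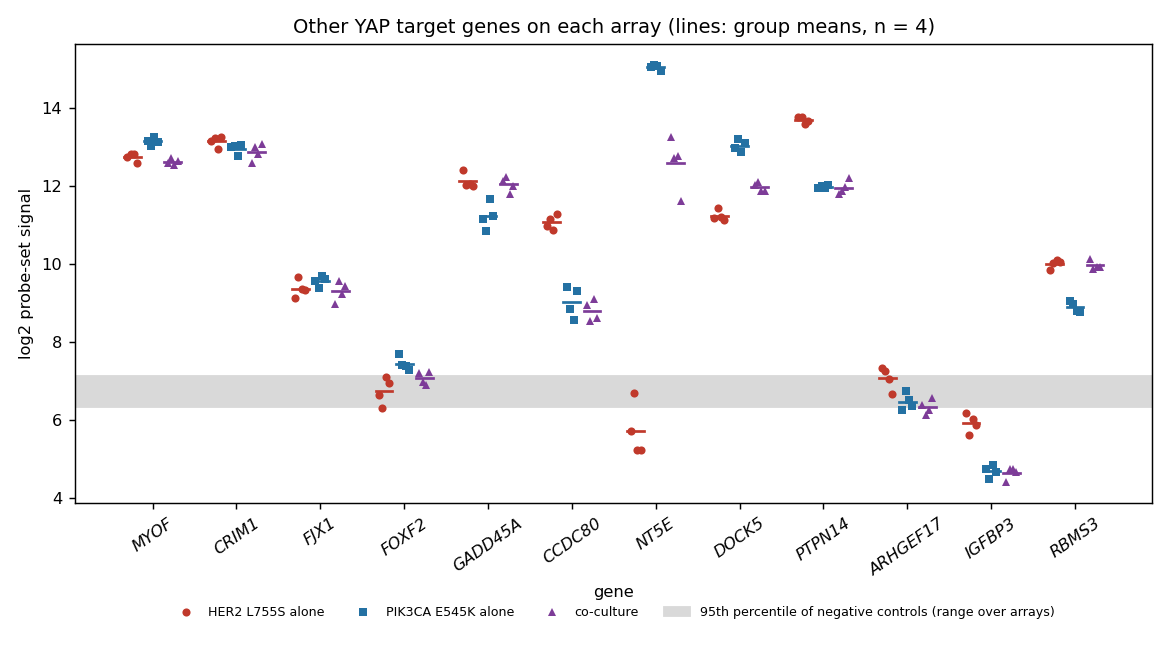
Log2 probe-set signal (vertical axis) on each array of 12 further YAP target genes, with 4 arrays per group and lines at the means. NT5E spans the widest range, from a HER2-mutant mean of 5.71, below the negative control level, to a PIK3CA-mutant mean of 15.05, and PTPN14 and CCDC80 are highest in the HER2-mutant line.

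The genes most like CCN1 and CCN2 were sought over the 12 arrays, by the root mean square difference of log2 signals after each gene's mean was subtracted. Nearest to CCN1 were SREK1 (0.096), RSRC2 (0.099) and HNRNPA0 (0.110), each with its lowest mean in the PIK3CA-mutant line. Nearest to CCN2 were PGAP1 (0.293), DUSP16 (0.356) and PPP1R3B (0.361), each with its highest mean in the co-culture. For both sets the shared order of means largely follows from the search, which ranked genes on these same arrays. PGAP1 had means of 7.60, 7.58 and 8.28 and DUSP16 of 8.20, 8.10 and 8.93 in the HER2-mutant line, the PIK3CA-mutant line and the co-culture. No such list is given for ANKRD1, which was at background.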

How the data were processed

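RNA was measured on 12 whole-transcriptome arrays, 4 per group. The authors deposited signals per probe set on a log2 scale; the submitters' processing notes name the Transcriptome Analysis Console. Its version, background correction, normalization and genome build are not given in the sources used here. Of 24351 probe sets, 17709 carried 1 gene symbol in the annotation. Where a gene had more than 1 (20 genes), the probe set with the highest mean signal stood for it. Genes above the 30th percentile of the named probe sets of an array on at least 4 arrays were tested.

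A model with 3 group means was fitted to all arrays in limma 3.58.1 (R 4.3.3), with a trend of the spread, two-sided tests and Benjamini-Hochberg adjustment over 12758 genes, threshold 0.05. The standard error against the blend used delta-method weights. The code was tested on simulated data. Members and lists were chosen with earlier results of these data known. All members are named, with YAP1, WWTR1, TEAD2 to TEAD4, and up to 3 genes per direction, list and comparison, of which only some are printed. Alternatives varied the filter, scaling, spread, replicate block, probe sets, groups, margin, blend and arrays. Those for levels outside both lines were chosen after seeing the data. Promoters are from RefSeq, GRCh38.p14. The number of arrays limits the precision.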

Additional observations from a re-analysis of the deposited data

Results flagged for a closer look

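Of 102 groups of 4 arrays examined over 34 genes, 5 held an array that lay apart from the rest by more than Dixon's 95% critical gap. Chance gives about 1 such group in 20. ANKRD1 read 3.45 on HER2-mutant replicate 4, beside 2.71 to 2.82 on its other arrays, and 2.81 on PIK3CA-mutant replicate 2, beside 3.05 to 3.09, all below the negative control level. TEAD1 read 9.45 on PIK3CA-mutant replicate 2, beside 9.57 to 9.59. GADD45A read 12.41 on HER2-mutant replicate 1, beside 12 to 12.04. TAOK2, a kinase upstream of the Hippo core, read 7.54 on HER2-mutant replicate 2, beside 7.89 to 7.91.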

How the results depend on the processing

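Of 802 values of members under alternatives, 788 stayed on their side of the threshold, 13 lost a call and 1 gained one. In 7, none of them called, the sign turned: AXL between the lines with quantile normalization (0.046), with median centring (0.066), without HER2-mutant replicate 3 (0.085) and without PIK3CA-mutant replicate 2 (0.094); CCN2 between the lines without PIK3CA-mutant replicate 3 (-0.043); CCN1 in the co-culture against the HER2-mutant line with quantile normalization (-0.013); and TEAD1 against the PIK3CA-mutant line without co-culture replicate 4 (0.025). The CCN2, NUAK2 and AJUBA calls held under every alternative run. For the blend, these runs covered HER2-mutant shares of 65% and 85% only. Whether the AJUBA call against the blend holds at a lower share was not tested. The F3 call for the co-culture against the PIK3CA-mutant line was lost with a robust spread (adjusted p 0.157), without a trend of the spread (0.0854) and against the margin of 0.5 (p 1), so that 0 members were lower there; without single arrays that count ran from 0 to 1. The causes were not tested. Against the margin of 0.5 the genes called were 3524 between the lines, and 1 member was higher there. They were 2269 for the co-culture against the HER2-mutant line and 439 against the PIK3CA-mutant line. Against the latter, 0 genes of the YAP/TAZ list, 0 of the Hippo list and 3 further targets were called at that margin. Calls lost there included STK3 (treat adjusted p 0.154), WWTR1 (0.421) and GADD45A (0.281). Genes called outside both lines numbered 146 without a trend of the spread and 154 to 231 without single arrays, down from 236, the lowest without co-culture replicate 3. With the replicate number as a block (replicate block), 7604, 6506, 3335 and 5258 genes were called in the 4 comparisons, 243 were called outside both lines, and no call of a member changed. Same-numbered arrays did not deviate together (correlations -0.034 to 0.060 over 12 pairs). This cannot show whether same-numbered samples were prepared or run together.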
